A study of Arabidopsis thaliana with 3 samples.

Results

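Histone genes that package DNA between nucleosomes were read in the growing shoot tip of Arabidopsis thaliana: the linker histone genes H1.1 (AT1G06760), H1.2 (AT2G30620) and H1.3 (AT2G18050, listed as HIS1-3 in RefSeq), and HON4 (AT3G18035), a gene with a related domain. These 4 genes of 32678 loci were picked because 3 of them, H1.1, H1.2 and HON4, are among the most abundant genes annotated as DNA-binding in these same libraries. They were thus chosen by their level in these libraries, and their levels are given as a description with no test. Only the spread between libraries, which the stated rule does not use, was tested. The genes, and the gene lists set beside them, were chosen with earlier results of these data known.

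The series holds 1 group of 3 libraries of wild-type Col-0 inflorescence meristems, the dissected growing tips of flowering shoots, with no other genotype and no treatment. Plants grew for 4 weeks under 8 h of light and for 2 weeks under 16 h, and each library came from a pool of 10 inflorescences stripped of flower buds down to stage P5 and frozen within 3 min. RNA was turned into strand-specific libraries and sequenced as paired reads of 100 bp, and 29094404, 28948463 and 27254114 counts fell on genes in replicates 1, 2 and 3. Separate growth or dissection of the pools is not stated, so a p-value measures the spread between these pools only, which may be technical. In pooled tissue, fewer cells that express a gene and less RNA per cell cannot be told apart.

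Linker histones sit on the DNA where it enters and leaves a nucleosome, bind through a central globular domain, and compact chromatin with a basic tail. In Arabidopsis, H1.1 and H1.2 are the main variants and are found in nearly all nuclei, where they limit the access of DNA methyltransferases to packed chromatin. H1.3 is a shorter and structurally divergent variant known from guard cells and from leaves under drought or low light, and RefSeq notes its induction by dehydration and abscisic acid (ABA). HON4 joins a globular domain of the H1 type to AT hooks, short motifs that bind the minor groove of AT-rich DNA.

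The coding sequences of the H1 genes are related but far from identical, as shown by the 100 coding bases in which H1.1 and H1.2 are most alike. This stretch encodes part of the globular domain and opens the second coding exon of each gene. Capitals mark bases that differ from H1.1. All sequences are from RefSeq, assembly TAIR10.1, read 5′ to 3′ on the gene's strand.
H1.1 (chr1:2077211-2077310, minus strand): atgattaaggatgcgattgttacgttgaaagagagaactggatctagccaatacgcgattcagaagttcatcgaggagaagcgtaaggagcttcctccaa
H1.2 (chr2:13045647-13045746, plus strand): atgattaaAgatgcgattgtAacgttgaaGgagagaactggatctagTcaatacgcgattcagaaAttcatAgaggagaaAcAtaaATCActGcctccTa
H1.3 (chr2:7846254-7846353, plus strand): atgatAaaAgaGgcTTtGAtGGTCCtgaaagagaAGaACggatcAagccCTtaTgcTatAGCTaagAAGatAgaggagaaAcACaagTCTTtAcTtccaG
H1.2 matched H1.1 at 86 of the 100 bases and H1.3 at 61. The stretch begins at coding base 202 in H1.1 and in H1.2 and at coding base 88 in H1.3, whose part before the globular domain is shorter. Over the aligned coding sequence, H1.1 and H1.2 were 74.7% identical across 770 bases. This measure leaves gaps out and ran from 66.1% for H1.2 and H1.3 to 77.2% for H1.3 and HON4. It thus does not show which pairs are the closest relatives. The longest run that the exons of H1.1 and H1.2 share is 17 bases, and no pair among the 4 genes shares a longer one. A read of 100 bases thus has no exact match in the exons of a pair of them.

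The bases upstream of the annotated starts were searched for motifs known from histone, cell cycle and stress genes, and are shown because the 4 genes differ in level and H1.3 in stability. The motifs were the histone octamer CGCGGATC, known from plant histone promoters, the E2F-type site TTTCCCGC, the telo-box AAACCCTA, the ABA-response core ACGTG, the G-box CACGTG that contains it, and the drought-response core CCGAC, each on both strands. Capitals mark the motifs found in the 250 bases before each start.
H1.1 (chr1:2077768-2078017, minus strand): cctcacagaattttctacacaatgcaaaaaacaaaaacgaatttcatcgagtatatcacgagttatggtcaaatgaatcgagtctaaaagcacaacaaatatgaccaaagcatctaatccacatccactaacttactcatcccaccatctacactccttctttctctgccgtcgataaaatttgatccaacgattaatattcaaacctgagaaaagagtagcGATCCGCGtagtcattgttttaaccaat
H1.2 (chr2:13044681-13044930, plus strand): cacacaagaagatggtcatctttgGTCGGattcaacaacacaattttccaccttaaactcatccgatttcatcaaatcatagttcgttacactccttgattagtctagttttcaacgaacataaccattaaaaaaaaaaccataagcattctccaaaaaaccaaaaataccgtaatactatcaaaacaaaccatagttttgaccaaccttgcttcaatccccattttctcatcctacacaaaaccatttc
H1.3 (chr2:7845673-7845922, plus strand): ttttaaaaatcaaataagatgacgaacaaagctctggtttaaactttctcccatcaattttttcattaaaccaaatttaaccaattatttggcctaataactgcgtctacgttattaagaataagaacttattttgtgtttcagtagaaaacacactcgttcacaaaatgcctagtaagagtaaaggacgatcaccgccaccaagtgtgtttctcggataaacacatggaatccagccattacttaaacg
HON4 (chr3:6172006-6172255, minus strand): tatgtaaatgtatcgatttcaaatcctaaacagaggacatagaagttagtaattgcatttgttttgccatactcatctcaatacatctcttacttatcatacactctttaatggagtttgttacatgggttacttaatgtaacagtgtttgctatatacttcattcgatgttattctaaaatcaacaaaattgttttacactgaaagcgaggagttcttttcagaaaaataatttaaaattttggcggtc
H1.1 held 1 octamer, in reverse orientation, starting 28 bases before the annotated start. H1.2 held 1 drought-response core, in reverse orientation, starting 226 bases before it. H1.3 and HON4 held none of these letters in this window. Of 26711 nuclear protein-coding genes, 0.139% hold the octamer in such a window, 0.618% the E2F-type site, 4.44% the telo-box, 23.1% the ABA-response core, 6.58% the G-box and 11.9% the drought-response core. The octamer was present in 3 of 13 H2A genes, 0 of 11 H2B genes, 4 of 14 H3 genes, 2 of 8 H4 genes and 1 of the 15 genes with the H1 globular domain, which is H1.1. A window of 500 bases before the coding start, which also covers the leader, gave the octamer in H1.1 and in none of the other 3 genes, against 0.191% of all genes. Only the octamer was searched in that window. Exon sequence of H1.2 matches chr1:2077720-2078038 at 72.9% over 325 bases, a stretch that covers the printed H1.1 window. The annotated leader spans 429 bases in H1.2 and 151 in H1.1. The windows before the annotated starts of H1.1 and H1.2 thus need not be matching parts of the genes. A match of letters is a description of the sequence and shows no binding.

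H1.1 (chr1:2076504-2077767, minus strand) was the highest of the 4 genes. It had 13836, 13652 and 13740 counts, which is 475.8, 471.8 and 504.5 CPM (counts scaled by library size), or 484 ± 17.8 CPM (SD, n = 3). The libraries lay close together, with a coefficient of variation of 3.68%. Divided by the length of its exons and rescaled to an equal total per library, a scale here called TPM-like, the level was 686 ± 30.0. That placed H1.1 at rank 167 of 26712 nuclear protein-coding genes.

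H1.2 (chr2:13044931-13046682, plus strand) had 9729, 8010 and 9124 counts. In CPM its level was 334.6, 276.8 and 335.0, so that replicate 2 was lower and replicates 1 and 3 were nearly equal. The mean was 315 ± 33.5 CPM (SD, n = 3) and the TPM-like level 311 ± 33.0, at rank 455. Within each library H1.1 exceeded H1.2 by 2.04, 2.45 and 2.16 times on the TPM-like scale, a log2 ratio of 1.15 ± 0.13. The size of that ratio depends on the length used, because the exons annotated for H1.2 add up to 1666 bases and those for H1.1 to 1159, while their coding lengths of 822 and 825 bases are nearly equal. With coding length the log2 ratio was 0.62, and H1.1 was the higher gene either way.

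HON4 (chr3:6168963-6172005, minus strand) had 7917, 7288 and 8171 counts, or 272.3, 251.9 and 300.0 CPM. Its mean was 275 ± 24.1 CPM and its TPM-like level 163 ± 15.2 (SD, n = 3), at rank 1031. The CPM ranges of HON4 and H1.2 overlapped, whereas per exon length HON4 was below H1.2 in each library. H1.1 exceeded HON4 by 4.17, 4.47 and 4.01 times on the TPM-like scale, a log2 ratio of 2.08 ± 0.08, which was 1.70 with coding length.

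H1.3 (chr2:7845923-7847031, plus strand) had 282, 108 and 547 counts, far below its relatives. In CPM these are 9.70 (95% exact Poisson interval 8.60 to 10.9) in replicate 1, 3.73 (3.06 to 4.51) in replicate 2 and 20.1 (18.4 to 21.8) in replicate 3. The intervals cover counting error only and do not overlap. The highest library exceeded the lowest by 5.38 times, and the mean was 11.2 ± 8.27 CPM (SD, n = 3). Without replicate 3 the mean was 6.72 CPM. H1.3 stood at rank 10265 with a TPM-like level of 19.0 ± 14.2, and its SD was thus close to its mean. H1.1 exceeded H1.3 by 40.9, 105 and 21.0 times in replicates 1, 2 and 3 on the TPM-like scale. The corresponding ratios of H1.2 to H1.3 were 20.0, 43.0 and 9.68 times.

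**Figure D1:**
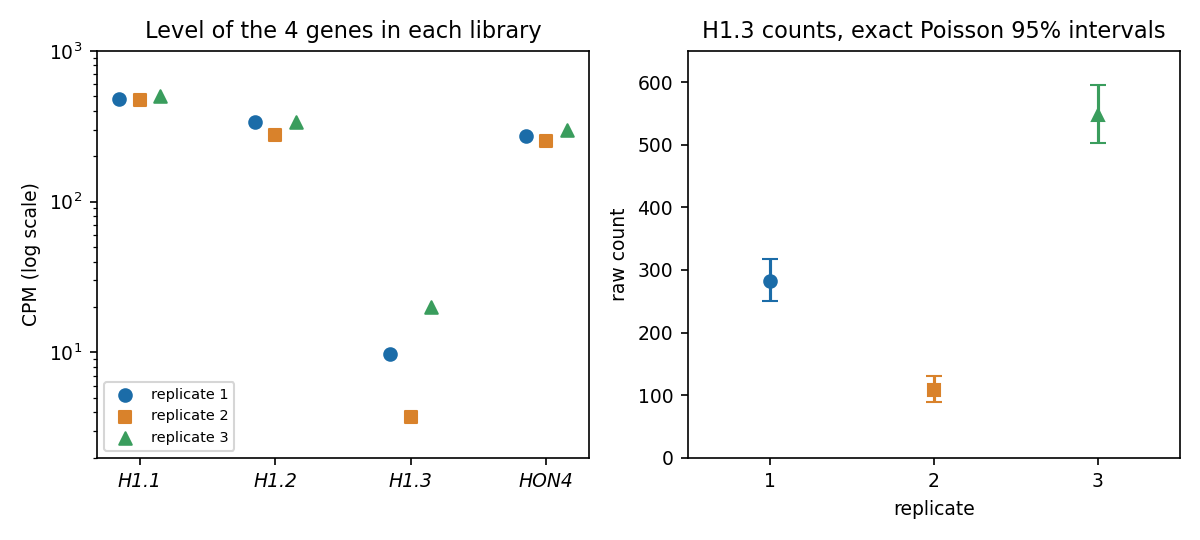
Left, CPM on a log axis of the 4 genes, with 1 point per library. Right, raw counts of H1.3 in each library with exact 95% Poisson intervals. H1.1, H1.2 and HON4 lie between 251.9 and 504.5 CPM with little spread, while H1.3 has 282, 108 and 547 counts.

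The order of the TPM-like levels was H1.1, H1.2, HON4 and H1.3, and no neighbouring pair overlapped over the 3 libraries. Among 368 genes described in RefSeq as transcription factors, a description that H1.1, H1.2 and HON4 carry, H1.1 ranked 1, H1.2 ranked 3 and HON4 ranked 7 by TPM-like level. Their level chose them, so these ranks are no finding. BTF3, a basal transcription factor gene, stood at 610 ± 19.6 between H1.1 and H1.2. The gene just inside the 10 highest was the floral organ gene PI at 145 ± 18.9, and just outside was its partner AP3 at 143 ± 10.3 (SD, n = 3 each).

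The pool of H1 messenger RNA was made up mainly of H1.1. H1.1 held 66.1, 70.5 and 66.2% of the summed TPM-like level of the 3 H1 genes in replicates 1, 2 and 3. H1.2 held 32.3, 28.8 and 30.6%, and H1.3 held 1.61, 0.669 and 3.16%. With coding length the mean shares were 59.2% for H1.1, 38.6% for H1.2 and 2.16% for H1.3. H1.1 was thus the larger part under both lengths, and H1.3 the smallest.

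Set against the core histones, which form the nucleosome itself, the H1 sum was lower than the sum of any core class. The 3 H1 genes together had a TPM-like level of 1015 ± 70.0, against 3615 ± 65.3 for 13 H2A genes, 3851 ± 69.4 for 11 H2B genes, 4091 ± 170 for 14 H3 genes and 3293 ± 91.8 for 8 H4 genes (SD, n = 3). As a share of the H2A sum the H1 sum was 28.0, 25.7 and 30.6% in replicates 1, 2 and 3, and of the H2B sum it was 26.3, 25.1 and 27.7%. Of the H3 sum it was 25.7, 23.3 and 25.4%, and of the H4 sum 30.0, 28.6 and 34.1%. Replicate 2 gave the lowest share against each class. These are ratios of messenger RNA per exon length and not of protein, and the class sums hold unequal numbers of genes. The handling of multi-mapped reads is not given, and discarding reads that fit several core histone genes would lower the class sums. Coding length lowered the log2 ratios, for H3 to -2.53 in place of -2.01 ± 0.08, and leaving out the length correction raised them, for H3 to -1.58.

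**Figure D2:**
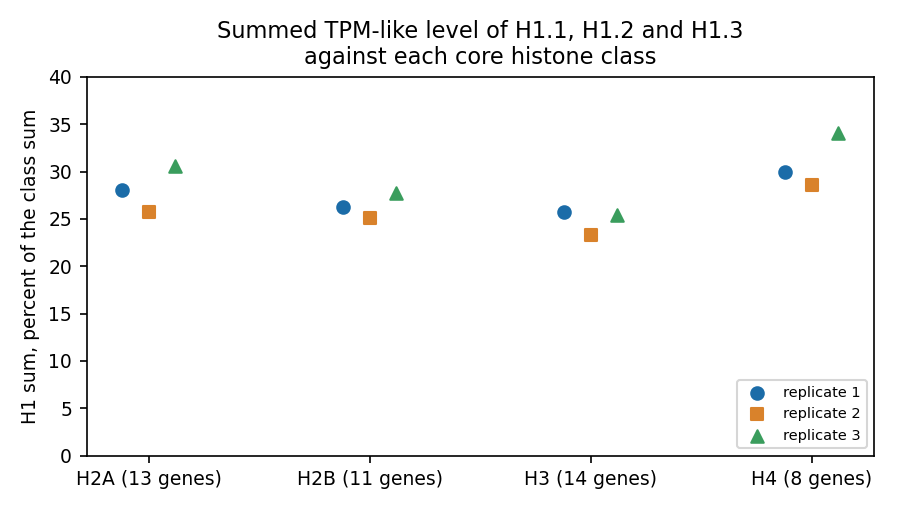
Summed TPM-like level of H1.1, H1.2 and H1.3 as a percentage of the summed level of each core histone class, with 1 point per library and the number of genes in each class on the axis. The values lie between 23.3 and 34.1%, and replicate 2 is lowest in each class.

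RefSeq annotates the H1 globular domain in 15 genes, which join the linker histones to proteins with AT hooks and to telomere-binding proteins. At a threshold of 1 CPM in each library, 13 of the 15 were expressed, against 63.2% of nuclear protein-coding genes. The 4 genes described above held 62.2, 59.9 and 61.0% of the summed TPM-like level of the 15. H1.1 alone held 35.5 ± 0.910%, H1.2 16.1 ± 1.23%, HON4 8.43 ± 0.247% and H1.3 0.955 ± 0.658% (SD, n = 3).

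The nearest relatives of HON4 in structure are HON5 (AT1G48620) and HMGA (AT1G14900), which also pair the globular domain with AT hooks. HMGA had TPM-like levels of 323, 364 and 405, a range that overlapped that of H1.2. HON5 had 143, 140 and 169, against 160, 150 and 179 for HON4, so that the ranges of the pair overlapped although HON4 was above HON5 in each library. The ratio of HON4 to HON5 was 1.12, 1.07 and 1.06 times. HON4 was below HMGA in each library per exon length, at 0.496, 0.411 and 0.443 times its level, a log2 ratio of -1.16 ± 0.14, but without length correction the log2 ratio was -0.043 and HON4 was the higher gene in replicate 1, at 272.3 CPM against 253.8 CPM for HMGA. HON4 and HON5 share stretches of sequence, the closest being 97.6% identical over 42 bases and a longer one 81.1% over 222 bases, so the split of reads at these stretches is uncertain.

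TRB1, TRB2 and TRB3, which bind telomeric repeats through a Myb-like domain, had TPM-like levels of 66.5 ± 4.23, 31.8 ± 1.65 and 23.6 ± 2.98. AT1G72740 stood at 39.8 ± 2.81, AT1G17520 at 29.0 ± 2.86, AT1G54260 at 24.9 ± 3.31 and AT5G08780 at 19.9 ± 0.271 (SD, n = 3). H1.3, at 6.34 to 34.4, spanned the levels of most of these lower genes. The remaining genes, AT1G54240 and AT1G54230, were detected almost wholly in replicate 1, with 97, 1 and 1 counts and with 30, 2 and 0 counts. A count of 0 there allows up to 0.110 CPM. Replicate 1 was also the library with tapetum transcripts, those of the inner cell layer of anthers. The summed level of the 5 tapetum markers was 105, 0.830 and 0.110 CPM in replicates 1, 2 and 3, with AMS and ACOS5 making up nearly all of it, MYB80 below 1 CPM, and MS1 and CYP703A2 at 0. Their part in the counts of AT1G54240 and AT1G54230 was not tested.

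**Figure D3:**
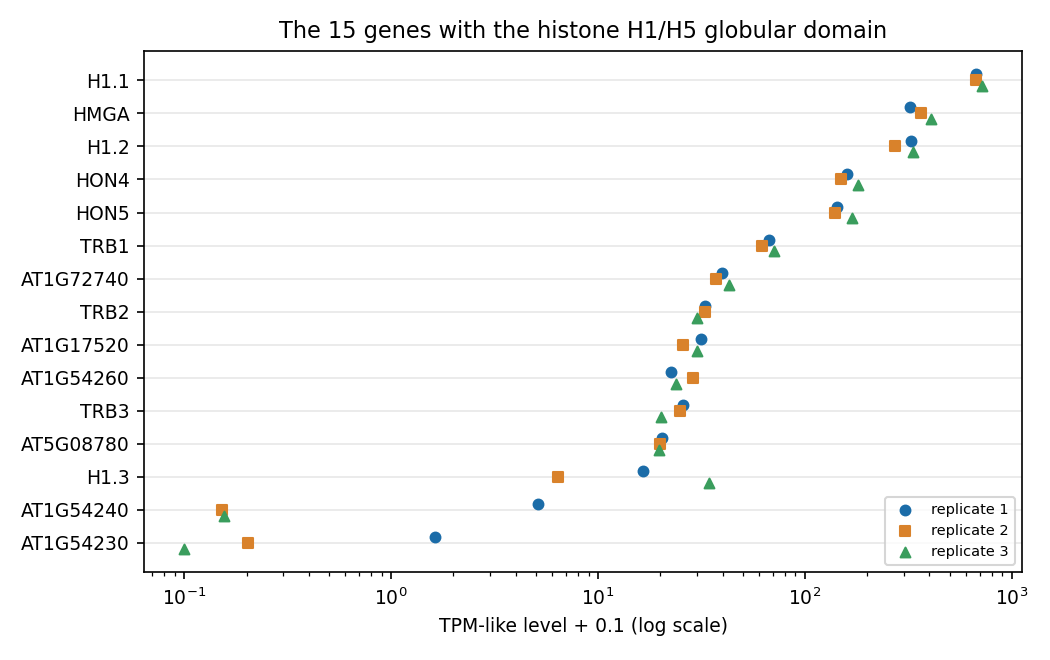
TPM-like level plus 0.1, on a log axis, of the 15 genes with the H1 globular domain, ordered by mean level, with 1 point per library. Most genes have their 3 points close together, while H1.3 spans 6.34 to 34.4, and AT1G54240 and AT1G54230 are high in replicate 1 only.

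Whether a gene varied between the pools more than genes of its level was tested with edgeR over 18334 genes. The filter on low counts left out genes that were very low in any library, also where another library was high. Of all genes tested, 462 varied at an adjusted p under 0.05, or 2.52%. H1.3 was the only one of the 4 genes among them, and the only one of the 13 genes with the globular domain that were tested. Its biological coefficient of variation was 0.510, where the trend for genes of its level was 0.185 (edgeR goodness-of-fit test, deviance 35.7, adjusted p = 2.29e-06). This coefficient is the fitted spread beyond counting error, which edgeR draws toward the trend. That spread lay at percentile 99.2 of all genes tested. The call rested on the contrast between replicates 2 and 3, since it was lost without replicate 2 (edgeR, adjusted p = 0.203) and without replicate 3 (edgeR, adjusted p = 0.208), and it was kept without replicate 1 (edgeR, adjusted p = 4.81e-07). DESeq2 marked 1.52% of the genes tested as dispersion outliers, with H1.3 among them and not the other 3 genes.

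H1.1, H1.2 and HON4 had coefficients of 0.124, 0.140 and 0.133, below the trend values of 0.150, 0.148 and 0.147 at their levels (edgeR, adjusted p = 1.0 each). The median coefficient over all genes tested was 0.131. Gene-wise dispersions by DESeq2, which are not drawn toward a trend, did not all lie below it. H1.1 was below its trend, at 0.0034 against 0.0092. H1.2 was above, at 0.0153 against 0.0095, and so was HON4, at 0.0122 against 0.0096. A p that misses the threshold does not show that these genes were constant. Their highest library exceeded the lowest by 1.07 times for H1.1, 1.21 times for H1.2 and 1.19 times for HON4.

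**Figure D4:**
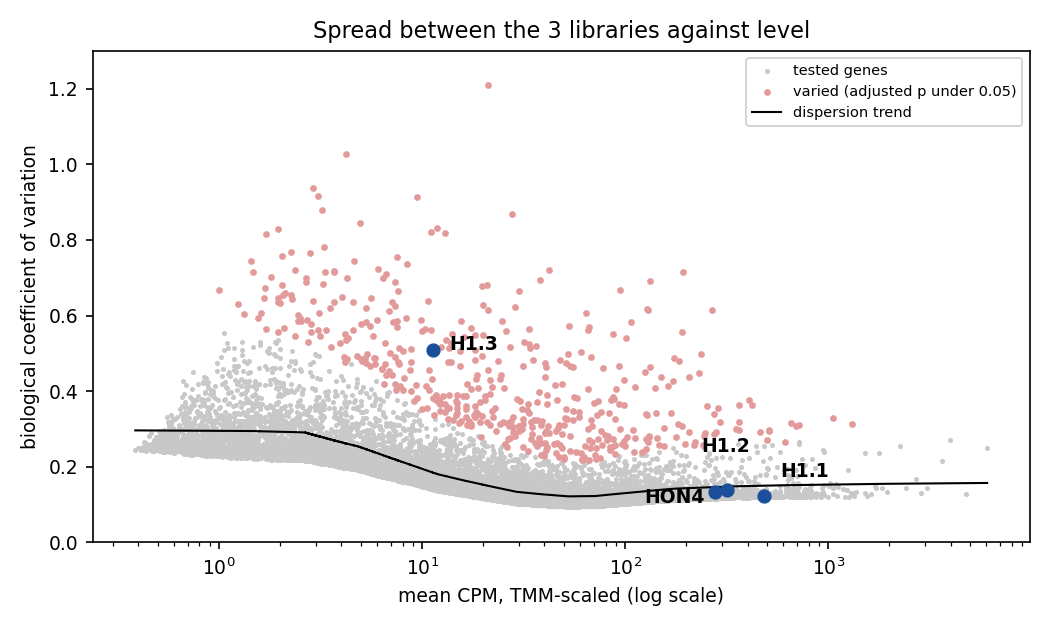
The edgeR biological coefficient of variation, drawn toward the trend, against mean CPM (log axis) for 18334 genes. Genes that varied are in red and the dispersion trend is a line. H1.1, H1.2 and HON4 lie at 0.124 to 0.140, just under the trend, and H1.3 lies at 0.510 among the genes that varied.

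All 4 genes were lowest in replicate 2 and highest in replicate 3. That order was held by 12.4% of the genes tested, by 47 of the 462 genes that varied (10.2%), by 6 of 40 tested core histone genes (15%), and by 7 of the 13 tested genes with the globular domain (53.8%). Those 7 include the 4 genes themselves, and of the other 9 tested genes 3 held the order, HON5, TRB1 and AT1G72740. For H1.2 the top place rests on 335.0 CPM against 334.6 CPM, and for the genes other than H1.3 the differences behind the order did not pass the test. The 4 genes kept the order when the libraries were scaled by TMM or by DESeq2 size factors.

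H1.3 is known to be induced by drought and ABA, and a list of genes of that response was read beside it. That list was chosen with earlier results of these data known. Of 17 listed genes 14 were expressed, against 63.2% of nuclear protein-coding genes. Of the 15 tested 6 varied, against 2.52% of all genes tested. The list's median coefficient of variation was 0.266, where that of all genes tested was 0.131. The count depends on the libraries used: 2 of 15 varied without replicate 1 (1.28% of all genes tested), 6 of 16 without replicate 2 (1.57% of all) and 0 of 15 without replicate 3 (1.16% of all). DESeq2 marked 4 of the 15 as dispersion outliers, against 1.52% of all genes tested.

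Of the 6 genes, 5 were highest in replicate 1 and lowest in replicate 3. The dehydrin gene ERD10 had 302, 227 and 132 CPM in replicates 1, 2 and 3 (edgeR, adjusted p = 0.0257), and the dehydrin gene COR47 had 57.1, 36.8 and 16.4 CPM (edgeR, adjusted p = 3.48e-07). The stress-induced gene RD29A had 41.3, 29.0 and 14.0 CPM (edgeR, adjusted p = 0.000126). H1.3, in contrast, was highest in replicate 3. DREB2A, a transcription factor gene of the drought response, had 16.3, 6.67 and 3.56 CPM (edgeR, adjusted p = 0.000381). NCED3, which encodes the rate-limiting enzyme of ABA synthesis under drought, had 5.09, 2.45 and 0.661 CPM (edgeR, adjusted p = 0.00881). The exception was the caleosin gene RD20, with 23.0, 20.7 and 45.2 CPM (edgeR, adjusted p = 0.00119), which like H1.3 was lowest in replicate 2 and highest in replicate 3. RD20 and NCED3 were not among the DESeq2 outliers. RD26, which did not pass the test, had 7.22, 4.80 and 7.67 CPM. It was the other of the 2 genes, of 15 tested, with the order of H1.3. That count is near the share of 12.4% over all genes tested. The part of a drought or ABA response in the spread of H1.3 was not tested.

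Of the 15 tested genes of this list, 10 were highest in replicate 1, where 33.2% of all genes tested had their highest level, 2 in replicate 2 (43.8% of all) and 3 in replicate 3 (22.9% of all). With TMM or DESeq2 scaling, 9 were highest in replicate 1. The higher members RD22, P5CS1 and HAI1 did not pass the test, at TPM-like levels of 100.3 ± 10.3, 85.0 ± 3.03 and 76.2 ± 12.5 (SD, n = 3). The dehydrin gene RAB18 had 14, 1 and 30 counts, lowest in replicate 2 and highest in replicate 3, and RD29B had 12, 0 and 3. The filter on low counts kept both out of the test.

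**Figure D5:**
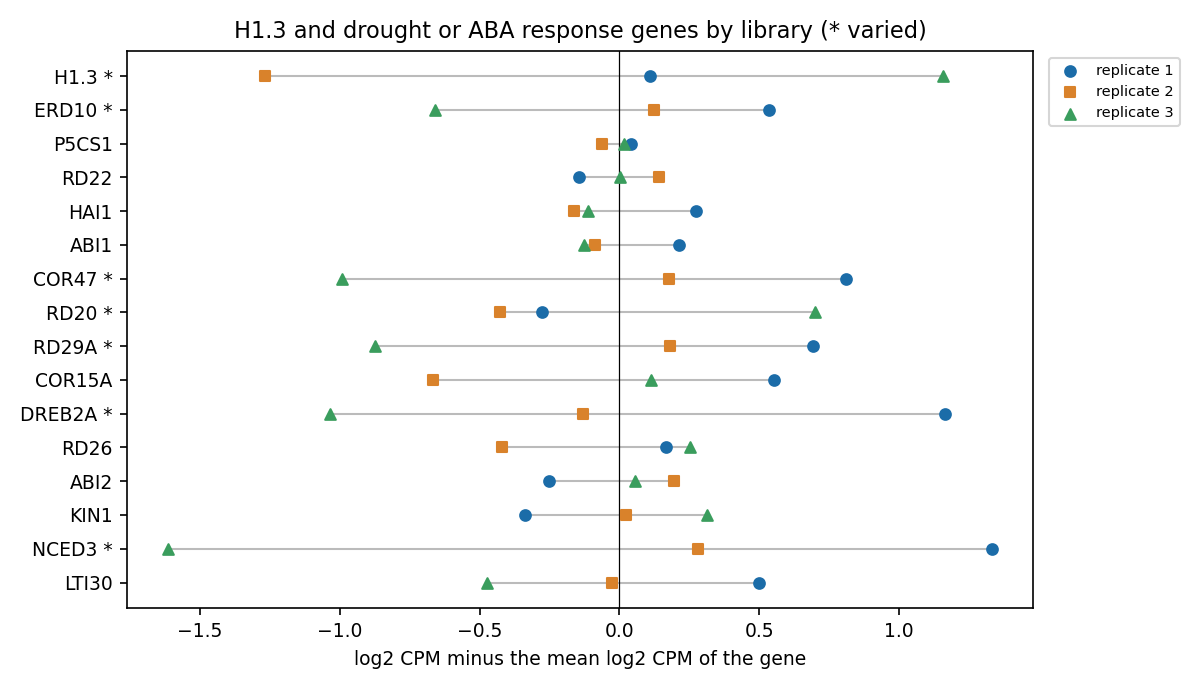
Log2 CPM of H1.3 and of 15 drought or ABA response genes in each library, relative to the mean log2 CPM of the gene over the 3 libraries. Asterisks mark genes that varied. H1.3 and RD20 have replicate 3 at the right and replicate 2 at the left, while ERD10, COR47, RD29A, DREB2A and NCED3 have replicate 1 at the right and replicate 3 at the left.

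Guard cells, a known site of H1.3 in leaves, gave little signal. Of 10 genes of the stomatal lineage and guard cells 4 were expressed, against 63.2% of nuclear protein-coding genes, all of them genes of the developing lineage. They were led by the receptor gene TMM at 20.6, 23.8 and 22.7 CPM and SPCH, which starts the lineage, at 7.36, 11.2 and 8.04 CPM, followed by EPF2 and FAMA. The mature guard cell genes MYB60, KAT1, SLAC1 and HT1 were each below 1 CPM in each library. The summed level of the list, to which TMM gave the largest part, was 36.9, 43.6 and 38.2 CPM. The filter on low counts kept MYB60, KAT1, SLAC1, HT1 and EPF1 out of the test, so no mature guard cell gene was tested. Of the 5 tested genes, all of the developing lineage, 0 varied by adjusted p and 0 by unadjusted p under 0.05 (edgeR). DESeq2 marked 0 of them. With so few genes this is near the share of 2.52% over all genes. The part of guard cells in the spread of H1.3 was not tested.

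In level over the 3 libraries, the genes closest to H1.3 were CAT6, a cationic amino acid transporter gene, and SIS. Closeness was the root mean square difference in log2 TPM-like level, compared over 19825 genes. It compares the level in each library, so genes close to a gene that varies widely will tend to vary with it. The differences of CAT6 and SIS from H1.3 were 0.49 and 0.50. CAT6 had 34.8, 16.8 and 40.5 CPM and SIS had 22.9, 9.75 and 25.8 CPM, so that both were lowest in replicate 2. They were picked by their likeness to H1.3 in these libraries, so their shared low and their spread are no finding. The other 3 genes had much closer matches. H1.1 was nearest to PSBW, of photosystem II, at a difference of 0.04, and to RPL27AB, of the ribosome, at 0.06. H1.2 was nearest to MBF1B, a bridging factor of transcription, at 0.02 and to AT5G47600 at 0.04. HON4 was nearest to PGR5-LIKE A at 0.04 and to AT5G23040 at 0.04. These matches describe levels in 3 libraries that share their handling.

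Other genes that act on the same chromatin were mostly expressed and did not pass the variation test (edgeR). The counts of expressed genes below compare with 63.2% of nuclear protein-coding genes. Over the HMG-box, chaperone, DNA methylation and core histone lists below, 0 genes passed by adjusted p (2.52% of all genes tested), 0 by unadjusted p under 0.05 (6.04% of all), and DESeq2 marked 0 (1.52% of all). The HMG-box genes, whose proteins also bind linker DNA, had 12 of 13 expressed and 0 of 12 tested that varied, with HMGB2 at a TPM-like level of 568 ± 41.1, 3xHMG-box2 at 329 ± 10.1, HMGB3 at 297 ± 22.5 and HMGB4 at 296 ± 15.1 (SD, n = 3). HMGB2 was below H1.1 and above H1.2 in each library. The lowest were AT1G04880 at 7.21 ± 1.64 and AT1G55650, listed at 0. All 13 histone chaperone genes were expressed and 0 varied, led by NRP1 at 222 ± 9.71, NAP1;2 at 166 ± 16.3, NAP1;1 at 126 ± 8.99 and NRP2 at 97.4 ± 4.25, with FAS1 and HIRA lowest at 16.5 ± 1.49 and 12.5 ± 0.443.

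The DNA methylation genes whose action in Arabidopsis is tied to H1 were likewise all expressed (11 of 11, against 63.2% of nuclear protein-coding genes). Of these, 0 varied. DDM1, the remodeller that opens H1-bound chromatin to methyltransferases, had a TPM-like level of 48.0 ± 3.78, and the methyltransferase gene CMT3 had 52.4 ± 2.01. VIM1, a cofactor of maintenance methylation, stood at 139 ± 6.01 and the demethylase gene ROS1 at 61.6 ± 6.41 (SD, n = 3). The histone methyltransferase genes SUVH6 and SUVH5 were lowest at 14.5 ± 1.09 and 5.93 ± 0.466. Of the core histone genes, 0 of 40 tested varied, with median coefficients of 0.117 for H2A, 0.126 for H2B, 0.120 for H3 and 0.117 for H4.

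As a check of the tissue, 4 of 5 meristem markers and 5 of 5 floral primordium markers were expressed, against 63.2% of nuclear protein-coding genes. Of these markers 0 varied (edgeR), against 2.52% of all genes tested. By unadjusted p under 0.05 the count was 1 of the 5 meristem markers, KNAT1, and 0 of the floral ones (6.04% of all). DESeq2 marked 0 (1.52% of all). The meristem marker below 1 CPM was CLV3, with 20, 26 and 30 counts. Of 6 root markers 2 were expressed, SCR and SHR, which shoots also express, while none of 4 seed, 3 pollen and 5 tapetum markers passed 1 CPM in each library. In replicate 1, however, the tapetum markers AMS and ACOS5 reached 58.3 and 46.2 CPM. VGD1, of pollen, had 2.58, 12.2 and 0.330 CPM and was highest in replicate 2, where H1.3 was lowest. Of the other pollen markers, PPME1 was also highest there, with 4, 16 and 1 counts. GRP17 went the other way, with 11, 5 and 11 counts, lowest in replicate 2. The part of such tissue differences in the spread of H1.3 was not tested.

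The annotated spans of H1.1, H1.2 and HON4 touch other genes. H1.1 shares 2 bases with AT1G06750 on the opposite strand, which had 10, 19 and 9 counts. It also shares 484 bases with the non-coding RNA AT1G04503 on the opposite strand, a locus that the count tables do not list. H1.2 shares 21 bases with AT2G30630 on the opposite strand, which had 14, 15 and 12 counts. HON4 shares 4 bases with HAL3A on the same strand, which had 1182, 1078 and 1122 counts. H1.3 overlaps no annotated gene. The strand setting of the counting is not given in the sources used here, so antisense reads over H1.1 cannot be told apart from its own.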

How the data were processed

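The authors deposited raw counts per locus, whole numbers for 32678 loci in each of 3 libraries. The submitters' processing notes name, with no role for each, HTSeq 0.6.1, TopHat2 2.1.0, Bowtie2 2.2.5 and FastQC, and the build TAIR10. The handling of multi-mapped reads is not given in the sources used here. Loci were matched to RefSeq TAIR10.1 (31912 matched), whose coordinates are printed. The 279 organellar loci were left out. CPM were computed on nuclear totals, and TPM-like levels as CPM per base of the exon union. Spread was tested with edgeR 4.0.16 (R 4.3.3; TMM, filterByExpr, intercept only; goodness of fit on 2 degrees of freedom, Benjamini-Hochberg over 18334 genes, threshold 0.05), and the procedure was tested on simulated data. DESeq2 1.42.0, other scalings, lengths and filters, and leaving out each library were alternatives. Sequences were aligned with blastn 2.17.0.

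The members and lists were chosen with earlier results of these data known. Named genes are all genes with the globular domain. Of each other list they are up to the 4 highest and 2 lowest by TPM-like level and those that varied. Also named are the 2 genes nearest in level over the libraries, genes that overlap and those at the edge of the 10 highest ranks. The marker lists are named by exception only. Of 107 listed genes, 106 had their name matched. AT1G04880 is given by its locus.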

Additional observations from a re-analysis of the deposited data

How the results depend on the processing

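No paired analysis was possible because all libraries belong to 1 group. The number of genes that varied, 462, was 11179 with Poisson variation alone, 278 by DESeq2 dispersion outliers, and 216 to 289 with 1 library left out. H1.1, H1.2 and HON4 were called only with Poisson variation alone. H1.3 was called under each setting other than those without replicate 2 or replicate 3. With no filter on low counts, 3 of 15 genes with the globular domain varied, H1.3, AT1G54240 and AT1G54230, against 568 of 22929 genes (2.48%). That count was chosen after seeing the data, as were the counts of drought and ABA genes with 1 library left out and the scaling of the order of libraries. Levels of the 4 genes moved by less than their SD under each scaling. The mean of H1.3 was 6.72 CPM without replicate 3. The log2 ratios depended on length, given here for coding length and then for no length correction: H1.1 to H1.2 was 0.62 and 0.62 (1.15 by exon union), H1.1 to HON4 1.70 and 0.82 (2.08), HON4 to HON5 0.30 and 0.37 (0.11), and HON4 to HMGA -1.34 and -0.043 (-1.16). The H1 sum gave -2.19 and -1.22 to H2A (-1.83), -2.25 and -1.37 to H2B (-1.93), -2.53 and -1.58 to H3 (-2.01), and -2.42 and -1.03 to H4 (-1.70). None of these means changed sign, but without length correction HON4 exceeded HMGA in replicate 1. The filter on low counts kept AT1G54240, AT1G54230, RAB18, RD29B and AMS out of the test. AMS had 1694, 11 and 1 counts, so a gene high in 1 library only could not be called.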
